A study of Rattus norvegicus with 10 samples.

Results

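The MHC class II genes and the invariant chain were followed in liver across 5 diets. The members were every probe set that the platform annotation assigned to Cd74, RT1-Da, RT1-Db1, RT1-Ba, RT1-Bb or Ciita, which gave 6 of 14217 annotated genes and 12 of the 31042 probe sets for transcripts on the array. Cd74 and RT1-Da had 1 probe set each, RT1-Db1, RT1-Bb and Ciita 2 each, and RT1-Ba 4. The genes were chosen by their signals in these same arrays, with the lower Cd74 signal after fish oil than after chow already known, so that comparison is a description: no p-value of a member is given for it, and nothing is read from its count of calls.

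Livers came from male Wistar rats that had eaten a fish oil diet (cod liver oil in the design text), a lard diet, an olive oil diet, a coconut fat diet or standard chow for 12 weeks and were then fasted overnight. The 4 high-fat diets drew 42% of their energy from fat. There were 2 arrays for each diet, and nothing in the labels says whether an array stands for 1 animal or a pool, so a p-value takes in only how far these samples lie apart, which may be technical. All values are signals on the linear scale of the MAS5 algorithm, and the 2% trimmed mean of each array was 100 to 100.1.

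MHC class II molecules are pairs of an alpha and a beta chain that display peptides from taken-up proteins to CD4 T cells. In the rat they are encoded in the RT1 complex: RT1-Ba and RT1-Bb encode the chains of the B molecule, RT1-Da and RT1-Db1 those of the D molecule. Cd74 encodes the invariant chain, which holds new class II pairs closed and steers them to endosomes, and Ciita encodes the transactivator that switches the whole set on. In liver, class II is carried mainly by dendritic cells, Kupffer cells, B cells and endothelium rather than by hepatocytes. RT1 class II genes are highly polymorphic, and Wistar is an outbred stock.

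The promoters of class II genes and of Cd74 are known for a shared module of X and Y boxes, bound by a protein complex that recruits Ciita. Of the 6 genes, 5 matched the RefSeq promoter table of the GRCr8 build, which holds 250 bases before and 50 bases after each start. Both strands were searched for CCAAT, the core of the Y box, and for AACNGAT, a string within the X box. CCAAT was present in 5 of the 5 promoters, against 37.5% of all 33469 promoters, and AACNGAT in RT1-Da, RT1-Db1 and RT1-Bb, against 7.62%. No match of one string overlapped a match of the other. The stretch of 65 bases that holds the match nearest the start on the minus strand, or for Cd74 its CCAAT match on the plus strand, is given for each gene because it is where the class II promoters can be laid side by side. Each is written 5′ to 3′ along the gene, with matches in capitals (ATTGG is CCAAT read on the other strand).
Cd74: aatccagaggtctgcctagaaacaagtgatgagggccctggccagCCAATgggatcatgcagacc
RT1-Da: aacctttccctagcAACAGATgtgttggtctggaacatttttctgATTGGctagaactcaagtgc
RT1-Db1: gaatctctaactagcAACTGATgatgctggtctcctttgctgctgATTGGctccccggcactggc
RT1-Ba: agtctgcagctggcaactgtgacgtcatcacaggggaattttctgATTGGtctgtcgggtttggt
RT1-Bb: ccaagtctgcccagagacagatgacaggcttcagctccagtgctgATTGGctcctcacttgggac

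The Cd74 stretch runs from -234 to -170 relative to the start and lies in the promoter at chr18:56526956-56527255 on the plus strand. The RT1-Da stretch, from -94 to -30, lies in chr20:4515165-4515464 on the plus strand, and the RT1-Ba stretch, from -88 to -24, in chr20:4576807-4577106 on the plus strand. The RT1-Db1 stretch, from -125 to -61, lies in chr20:4560113-4560412 on the minus strand, and the RT1-Bb stretch, from -106 to -42, in chr20:4604069-4604368 on the minus strand. In RT1-Da and RT1-Db1 an AACNGAT match stands upstream of the ATTGG match within the same stretch. Outside the stretches given, RT1-Bb has its AACAGAT at -183 to -177 and a CCAAT at -172 to -168, and RT1-Db1 has an AACAGAT at -161 to -155 and a CCAAT at -55 to -51. These matches describe the letters and were not tested as binding sites.

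Cd74 had signals of 523.6 and 425.2 in fish oil livers, 569.8 and 619.9 in lard livers, 974.3 and 954.9 in olive oil livers, 824.5 and 625.5 in coconut fat livers, and 929.6 and 1274.7 in chow livers. From low to high the diets stood in the order fish oil, lard, coconut fat, olive oil, chow. Arrays of neighbouring diets in that order did not overlap, except olive oil and chow. As means this was 474 ± 69.6 with fish oil, 595 ± 35.4 with lard, 725 ± 141 with coconut fat, 965 ± 13.7 with olive oil and 1100 ± 244 with chow (SD, n = 2 each). Since whole liver pieces were measured, fewer class II cells and less transcript per cell cannot be told apart here or in what follows.

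RT1-Da, the alpha chain of the D molecule, had 408.9 and 297.1 in fish oil livers, 439.4 and 361 in lard livers, 729.9 and 723.2 in olive oil livers, 452.9 and 441.3 in coconut fat livers, and 666.1 and 1015 in chow livers. The diets stood in the same order as for Cd74. Fish oil overlapped lard and olive oil overlapped chow, whereas coconut fat lay just above lard and clearly below olive oil. The mean signals were 353 ± 79.1 with fish oil, 400 ± 55.4 with lard, 447 ± 8.2 with coconut fat, 727 ± 4.74 with olive oil and 841 ± 247 with chow (SD, n = 2 each).

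RT1-Db1, the beta chain that pairs with RT1-Da, was read by 2 probe sets designed to the same source sequence. The first, 1370383_s_at, whose suffix marks probes shared with similar transcripts, had 101.8 and 109.6 in fish oil livers, 162.3 and 127.6 in lard livers, 190.1 and 133.5 in olive oil livers, 182.2 and 128.6 in coconut fat livers, and 148.7 and 231.6 in chow livers. Both fish oil arrays lay below all others on it. The second, 1370382_at, had 10.5 and 44.6 in fish oil livers, 67.8 and 14.2 in lard livers, 125.4 and 27.8 in olive oil livers, 83.7 and 22.5 in coconut fat livers, and 4.9 and 25.3 in chow livers. On this probe set arrays of the same diet differed between 3.72-fold, with coconut fat, and 5.16-fold, with chow, and all 5 diets overlapped except olive oil and chow.

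RT1-Ba, the alpha chain of the B molecule, had 4 probe sets. The first, 1370822_at, had 155 and 145.9 in fish oil livers, 202.5 and 80.3 in lard livers, 311 and 246.4 in olive oil livers, 253.5 and 158.6 in coconut fat livers, and 211.3 and 409.5 in chow livers. Fish oil lay below olive oil, coconut fat and chow on it, and between the lard arrays.

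**Figure D1:**
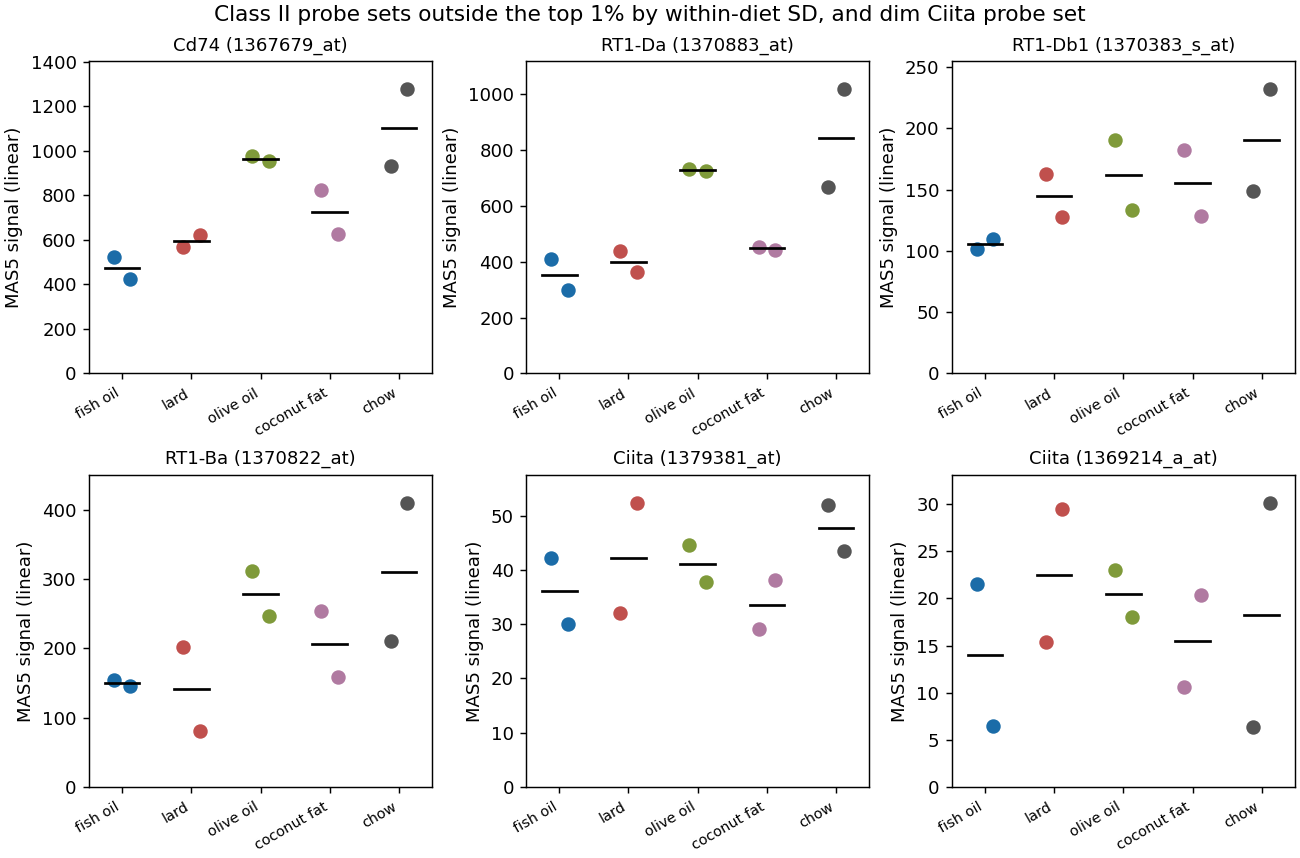
MAS5 signal (linear axis from 0) of Cd74, RT1-Da, RT1-Ba 1370822_at, RT1-Db1 1370383_s_at and both Ciita probe sets. Points are arrays, 2 per diet, and lines are diet means. For Cd74 the fish oil arrays, 523.6 and 425.2, lie below all others.

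The other RT1-Ba probe sets gave another picture. Of these, 1377334_at had 101.8 and 44.1 in fish oil livers, 7.8 and 260.4 in lard livers, 150.9 and 347.2 in olive oil livers, 129.5 and 85.4 in coconut fat livers, and 256.8 and 374.6 in chow livers. The lard arrays differed 33.4-fold from each other, and the first of them was the lowest of all 10.

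A further RT1-Ba pair, 1381593_x_at and 1392334_at, was designed to a single source sequence. On 1381593_x_at the signals were 34.2 and 10.9 in fish oil livers, 261 and 13.7 in lard livers, 16.6 and 7.7 in olive oil livers, 9.3 and 370.1 in coconut fat livers, and 33.8 and 19.3 in chow livers. On 1392334_at they were 10.4 and 16.7 in fish oil livers, 263.8 and 20.5 in lard livers, 30.2 and 4.4 in olive oil livers, 21.1 and 284.7 in coconut fat livers, and 33.5 and 22.9 in chow livers. On both, lard 1 and coconut fat 2 were bright and the other 8 arrays were at most 34.2, with the background bound at 12.8 (the top value among the probe sets for bacterial trp, a control).

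RT1-Bb, the beta chain that pairs with RT1-Ba, had 2 probe sets that ran against each other. On 1371065_at the signals were 118.5 and 42.1 in fish oil livers, 2.3 and 73.4 in lard livers, 116 and 231.3 in olive oil livers, 64.5 and 92.6 in coconut fat livers, and 258.2 and 355.3 in chow livers. On 1371033_at they were 12.3 and 108.1 in fish oil livers, 234.7 and 68.6 in lard livers, 219.2 and 24.1 in olive oil livers, 168.4 and 114.5 in coconut fat livers, and 16.2 and 3.6 in chow livers. The chow arrays were the 2 brightest on 1371065_at, and on 1371033_at chow 2 was the lowest of all and chow 1 the third lowest. Lard 1 was the dimmest array on 1371065_at and the brightest on 1371033_at.

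**Figure D2:**
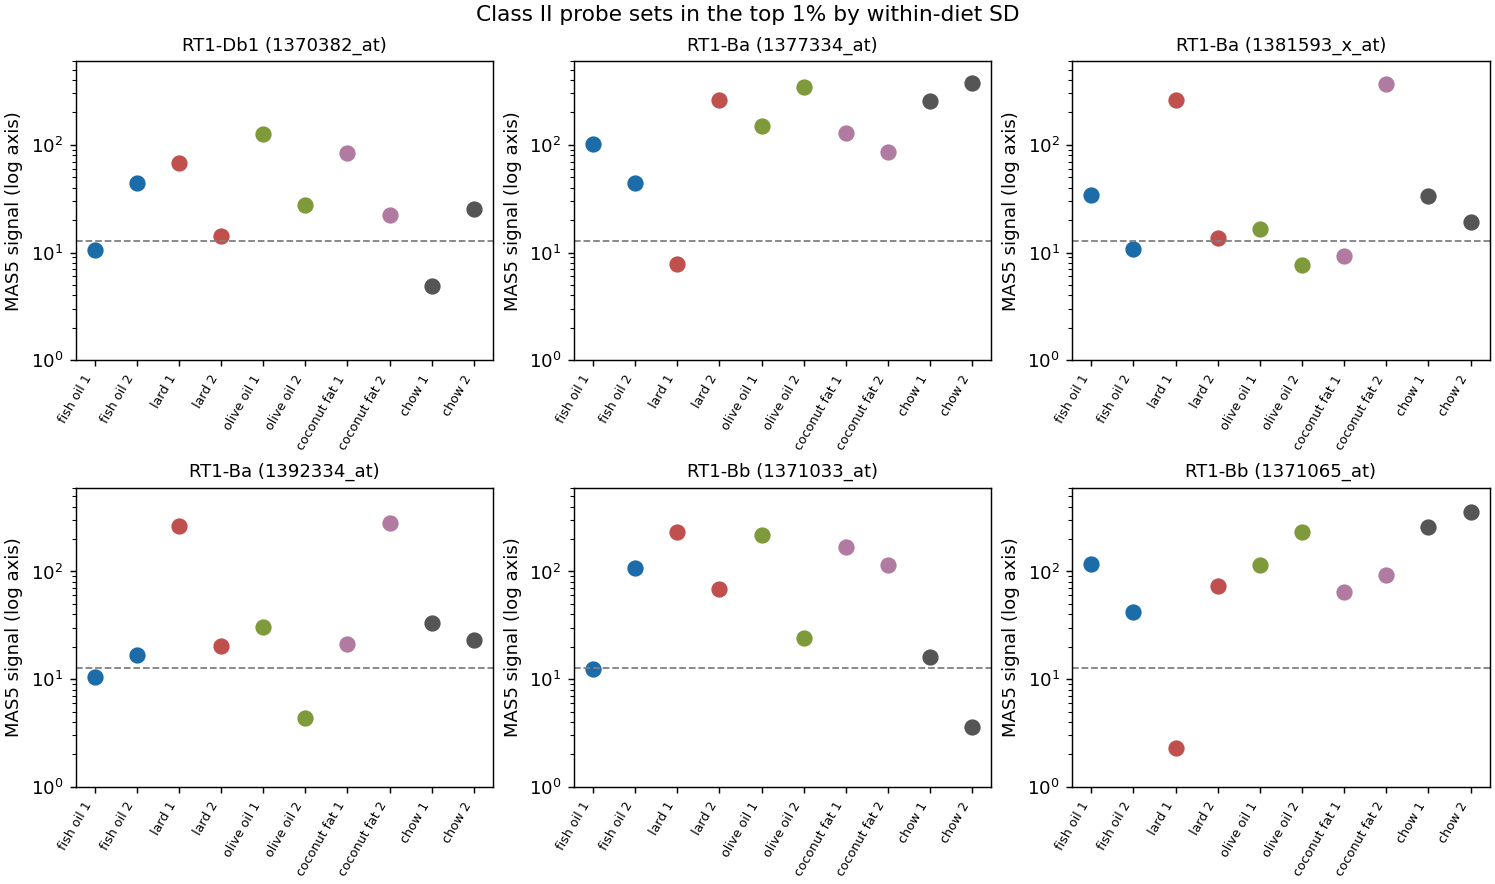
MAS5 signal (log axis) per array of 6 RT1-Ba, RT1-Bb and RT1-Db1 probe sets, 2 arrays per diet, with the background bound of 12.8 as a dashed line. Lard 1 and coconut fat 2 stand out on RT1-Ba 1381593_x_at (261 and 370.1) and 1392334_at (263.8 and 284.7).

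The spread between arrays of 1 diet separated these probe sets. The within-diet SD on the log2 scale was 0.22 for Cd74, 0.26 for RT1-Da, 0.32 for RT1-Db1 1370383_s_at and 0.29 for Ciita 1379381_at, against a median of 0.29 over all 18625 probe sets tested. It was 0.56 for RT1-Ba 1370822_at. Among the 1000 probe sets nearest in signal, a larger SD was found for 32.6% in the case of Cd74, 21.7% for RT1-Da, 16.6% for RT1-Db1 1370383_s_at, 2.5% for RT1-Ba 1370822_at and 76.9% for Ciita 1379381_at, so the first 4 varied more than most probe sets of like signal. It was 2.08 for RT1-Ba 1381593_x_at, 1.74 for 1392334_at, 1.56 for 1377334_at, 1.51 for RT1-Bb 1371033_at, 1.35 for RT1-Db1 1370382_at and 1.34 for RT1-Bb 1371065_at. These 6 of 11 tested member probe sets belonged to the 1% of all probe sets with the highest within-diet SD (1.13 or more), as did 0 of the 24 other RT1 probe sets tested. A high spread was not confined to the members, though. The other RT1 probe sets had a median SD of 0.4, and RT1-A 1370429_at lay just under the cutoff at 1.08. Signals of the 6 member probe sets differed between 25.6-fold and 154-fold over the 10 arrays, against 3-fold for Cd74 and 3.42-fold for RT1-Da. The RT1 types of the rats are not given in the sources used here, so a sequence difference under a short probe and a difference in transcript level cannot be told apart for these 6.

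**Figure D3:**
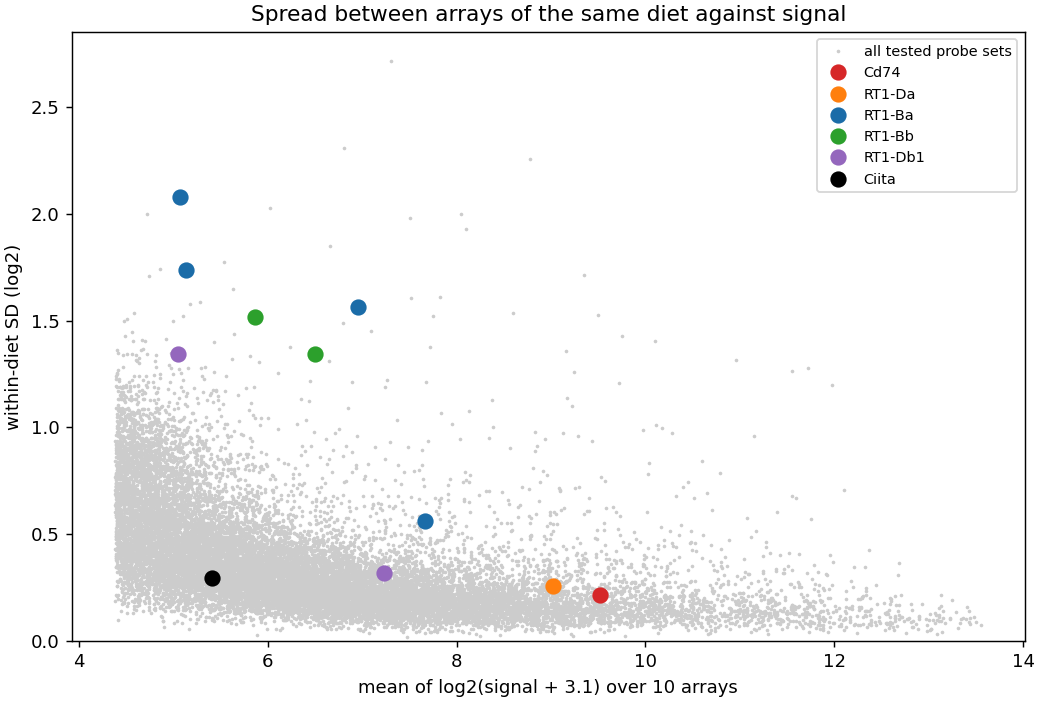
Within-diet SD (log2) of each tested probe set against its mean log2 signal over 10 arrays, with members coloured by gene and all other probe sets in grey. Of the members, 6 lie above an SD of 1.13, and Cd74 lies at 0.22.

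Ciita, the transactivator, was dim. Its tested probe set 1379381_at had 42.2 and 30.1 in fish oil livers, 32.1 and 52.3 in lard livers, 44.6 and 37.7 in olive oil livers, 29.1 and 38.1 in coconut fat livers, and 51.9 and 43.4 in chow livers. The chow arrays were above both fish oil arrays, with 1.8-fold between the lowest and the highest of the 10. The second probe set, 1369214_a_at, ran from 6.4 to 30.1 with 3 arrays at or below the bound and was not tested.

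Between fish oil and chow, Cd74 had a log2 difference of -1.2 (SE 0.19, 2.3-fold lower) and RT1-Da of -1.23 (SE 0.22, 2.35-fold lower). Log2 differences are between diet means of log2(signal + 3.1). RT1-Db1 1370383_s_at had -0.8 (SE 0.27) and RT1-Ba 1370822_at -0.95 (SE 0.41). Of the 11 tested probe sets, 9 were below 0, where 51.5% of all probe sets were (median -0.92, against -0.01 over all probe sets), and 8 had fish oil arrays wholly below chow arrays, where 19% of all probe sets did. At an adjusted p under 0.05, 1 of 11 was called, Cd74, against 0.156% of all probe sets in either direction and 0.0859% lower. Since the contrast chose the genes, nothing is read from these counts. Without chow 1 the Cd74 value was -1.43, and without chow 2 it was -0.97. The call of Cd74 was lost without chow 2 and without either fish oil, lard or olive oil array.

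Against the mean of the lard, olive oil and coconut fat diets, whose difference is taken from no chow array but from the fish oil arrays used above, Cd74 had a log2 difference of -0.65 (SE 0.16, 1.57-fold, limma adjusted p = 0.116) after fish oil. Both fish oil arrays lay below the 6 others. RT1-Da had -0.53 (SE 0.18, limma adjusted p = 0.257) with overlapping arrays, and RT1-Db1 1370383_s_at had -0.51 (SE 0.22, limma adjusted p = 0.399) without overlap. In this comparison 0 of 11 members were called by limma, against 0.424% of all probe sets, and 3 of 11 had an unadjusted p under 0.05, against 11.8%. Fish oil lay wholly below on 2 of 11, against 6.8%.

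The same 3 high-fat diets against chow share the chow arrays with the first comparison. Cd74 had a log2 difference of -0.55 (SE 0.16, limma adjusted p = 0.389) and RT1-Da of -0.7 (SE 0.18, limma adjusted p = 0.317). The RT1-Bb probe sets had opposite values, -2.24 (SE 0.76, limma adjusted p = 0.49) on 1371065_at and 3.31 (SE 0.86, limma adjusted p = 0.324) on 1371033_at, each without overlap of the arrays. For scale, fish oil arrays lay wholly below those of the same 3 diets on 6.8% of all probe sets. Of the members, 0 of 11 were called, against 0.0537% of all probe sets, and 4 had an unadjusted p under 0.05, against 7.54%.

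Diet by diet against chow, Cd74 had a log2 difference of -0.87 with lard (SE 0.19, limma adjusted p = 0.374), -0.17 with olive oil (SE 0.19, limma adjusted p = 0.863) and -0.6 with coconut fat (SE 0.19, limma adjusted p = 0.785). RT1-Da had -1.04 with lard (SE 0.22, limma adjusted p = 0.374), -0.18 with olive oil (SE 0.22, limma adjusted p = 0.884) and -0.87 with coconut fat (SE 0.22, limma adjusted p = 0.592). Lard and coconut fat arrays lay below chow arrays for both genes, and olive oil arrays overlapped them. For scale, fish oil arrays lay wholly below chow arrays on 19% of all probe sets. No member passed in the 3 comparisons (0 of 11 each), where the share of all probe sets called was 0.0161% for lard, 0.0268% for olive oil and 0% for coconut fat. At an unadjusted p under 0.05 there were 6 members for lard, 1 for olive oil and 3 for coconut fat, against 7.99%, 8.38% and 5.43% of all. The olive oil one was RT1-Bb 1371033_at, which was higher than in chow (log2 difference 2.77, SE 1.05). This probe set was also among those for lard (3.52, SE 1.05) and coconut fat (3.64, SE 1.05), and the others were lower. Without lard 2, the lard values of RT1-Ba 1377334_at and RT1-Bb 1371065_at moved from -2.55 and -3.91 to -4.85 and -5.82. Without chow 2, the olive oil values of Cd74 and RT1-Da were 0.05 and 0.12.

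The difference between olive oil and lard is taken from neither fish oil nor chow arrays, although its SE, like all others here, comes from the spread within all 5 diets. Cd74 was at 974.3 and 954.9 with olive oil, against 569.8 and 619.9 with lard, a log2 difference of 0.7 (SE 0.19, limma adjusted p = 0.675). RT1-Da had 0.86 (SE 0.22, limma adjusted p = 0.675), RT1-Ba 1370822_at 1.1 (SE 0.41, limma adjusted p = 0.744) and RT1-Bb 1371065_at 3.04 (SE 0.93, limma adjusted p = 0.677). These 4 of 11 had olive oil arrays wholly above lard arrays, where 15.7% of all probe sets did, and the same number had an unadjusted p under 0.05, against 6.23%. After adjustment 0 of 11 passed, as did 0% of all probe sets. Without lard 2, RT1-Bb 1371065_at was at 4.95. Coconut fat against the mean of lard and olive oil gave limma adjusted p-values of at least 0.823 for every tested member, with 0 of 11 at an unadjusted p under 0.05, against 6.71% of all, and 0% of all called.

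**Figure D4:**
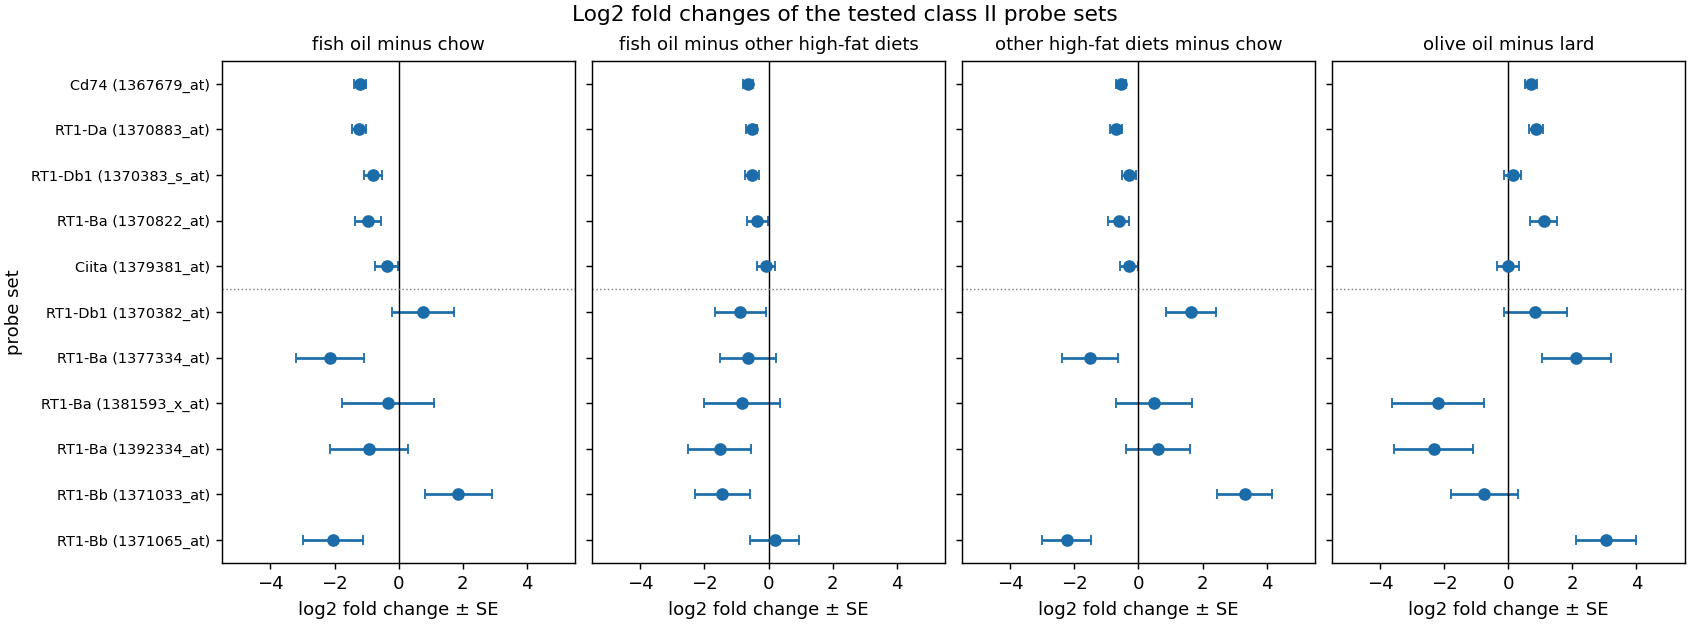
Log2 fold change ± SE (n = 2 arrays per diet) of the 11 tested probe sets in 4 comparisons, with the 5 probe sets whose within-diet SD was below 1.13 above the dotted line and the other 6 under it. Cd74 lies at -1.2 for fish oil minus chow and 0.7 for olive oil minus lard.

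Across the 10 arrays the gene most like Cd74 was RT1-Da, with a Pearson r of 0.946 (log2 values), the highest among 10469 other genes represented by their best probe set. With diet means removed r was 0.71. The next were Zfp18 (0.927), Flywch2 (0.902), Selenok (0.885), Zeb2 (0.884), F8 (0.883), Fxyd5 (0.881) and Irf8 (0.87), an interferon regulatory factor of the dendritic cell and macrophage lineage. Among the member probe sets, RT1-Db1 1370383_s_at had 0.8, RT1-Ba 1370822_at 0.76 and Ciita 1379381_at 0.37, while RT1-Bb 1371033_at had -0.4. RT1-Ba 1377334_at and RT1-Bb 1371065_at, chains of 1 molecule, had an r of 0.93 with each other and of 0.97 with diet means removed. They were the highest of all pairs of an RT1-Ba and an RT1-Bb probe set. With diet means removed the other such pairs ran from -0.67 to 0.49. Both probe sets are among those with the highest within-diet SD, where probe sequence and transcript level cannot be told apart. These values describe 10 arrays that share diets and carry no p-value. With diet means removed, the 2 arrays of a diet mirror each other, so those r values rest on 1 difference for each of 5 diets.

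The list for class II peptide loading and processing, which also holds proteases and Marchf1, was measured on 8 probe sets, 1 per gene. Of these, 0 passed by limma in any of the 8 comparisons. At an unadjusted p under 0.05 there were 2 between fish oil and chow, where 7.63% of all probe sets were, and 1 between fish oil and the other high-fat diets, where 11.8% were. Between fish oil and chow all 8 were below 0 (median -0.29, against -0.01 over 10470 genes), and against the other high-fat diets 6 were (median -0.17). RT1-DMa, a chain of the DM molecule that exchanges the invariant chain fragment for peptide, had 57.4 and 44.1 in fish oil livers, against 85 and 110.3 in chow livers (log2 difference -0.9, SE 0.27, limma adjusted p = 0.371). Its arrays lay below chow with every high-fat diet. Lgmn, an endosomal protease, had -0.4 between fish oil and chow (SE 0.16, limma adjusted p = 0.585), and Marchf1, a ligase that removes class II from the cell surface, had -0.78 (SE 0.43, limma adjusted p = 0.522) after fish oil against the other high-fat diets.

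Of the factors that act on class II transcription, 12 were tested and 0 passed by limma in any comparison, with 1 at an unadjusted p under 0.05 between fish oil and chow (7.63% of all probe sets) and 2 between fish oil and the other high-fat diets (11.8% of all). Between fish oil and chow 10 were below 0 (median -0.29), and against the other high-fat diets 10 were (median -0.16). Irf8 had 74.5 and 49.4 in fish oil livers, against 101.9 and 99.6 in chow livers (log2 difference -0.7, SE 0.23, limma adjusted p = 0.471), and -0.59 (SE 0.19, limma adjusted p = 0.245) against the other high-fat diets. Nfyb, a subunit of the CCAAT-binding factor, had 0.65 (SE 0.39, limma adjusted p = 0.78) against chow. Cd74 is also the receptor of the cytokine Mif. Of that ligand, its homologue Ddt and the partner receptors 4 were tested and 0 passed by limma in any comparison, with 0 at an unadjusted p under 0.05 in either fish oil comparison, and Mif itself ran from 849 to 1892.4 with both extremes in fish oil livers.

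MHC class I presentation was set beside class II as the other arm of antigen display. Of 17 genes tested, 9 were below 0 between fish oil and chow (median 0). Between fish oil and the other high-fat diets 14 were (median -0.51). At an unadjusted p under 0.05 there were 2 in the first comparison (7.63% of all probe sets) and 6 in the second (11.8% of all). By limma 1 gene passed, in the comparison with the other high-fat diets, where 0.424% of all probe sets did. That gene was Psmb8, a subunit of the immunoproteasome, which had 235.6 and 225.5 in fish oil livers, against 463.6 to 865.2 in the livers of the other high-fat diets (log2 difference -1.4, SE 0.25, limma adjusted p = 0.0426). Its call was lost without either fish oil or coconut fat array, without lard 1 and without olive oil 1, and over all arrays left out in turn its value stayed between -1.53 and -1.27.

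Markers of the cells that can carry class II were read beside these values. Summed over 9 annotated genes, leukocyte markers had 766 and 650 in fish oil livers, 813 to 1072 in the other high-fat livers, and 916 and 898 in chow livers. Of the 8 tested, 0 passed by limma, with 2 at an unadjusted p under 0.05 between fish oil and chow (7.63% of all probe sets) and 4 between fish oil and the other high-fat diets (11.8% of all). Between fish oil and chow 7 of the 8 were below 0 (median -0.48), and Ptprc, the pan-leukocyte antigen CD45, had 61.6 and 47.7 in fish oil livers, against 86.6 and 104.3 in chow livers (log2 difference -0.78, SE 0.23, limma adjusted p = 0.366). Dendritic cell markers, with 8 genes annotated and 3 tested, summed to 201 and 166 in fish oil livers, 205 to 344 in the other high-fat livers, and 300 and 253 in chow livers. Of the 3 tested, 2 were below 0 and 1 above it between fish oil and chow (median -0.55). The split was the same between fish oil and the other high-fat diets (median -0.59). By limma 0 passed in either, with 1 and 2 at an unadjusted p under 0.05 (7.63% and 11.8% of all probe sets). The defining markers Itgax and Flt3 were too dim to be tested.

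Kupffer cell and macrophage markers, with 15 genes tested, summed to 5030 and 5538 in fish oil livers, 5083 to 6067 in the other high-fat livers, and 6373 and 6552 in chow livers. Of these, 13 were below 0 between fish oil and chow (median -0.42) and 13 between fish oil and the other high-fat diets (median -0.3). Cd14, the endotoxin co-receptor, is 1 of the 15 genes and is part of these sums, but ran against most of the list. The sums of the fish oil arrays overlap those of the lard, olive oil and coconut fat arrays only with this bright gene included. With Cd14 left out of the sums, both fish oil arrays would lie below every other array. Cd14 had 1186.8 and 1284.8 in fish oil livers, against 237.4 to 579.1 in the other high-fat livers (log2 difference 1.71, SE 0.2, limma adjusted p = 0.00494). Without fish oil 2 this call was lost, and over the arrays left out the value stayed between 1.57 and 1.85. Chow livers had 1100.3 and 1044.6, so the 3 other high-fat diets were also below chow (log2 difference -1.5, SE 0.2, limma adjusted p = 0.035, where 0.0537% of all probe sets passed). That call was lost without either lard, coconut fat or chow array, at values between -1.64 and -1.36 over the arrays left out.

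B and plasma cell markers had 8 genes annotated and 4 tested and summed to 178 and 168 in fish oil livers, 190 to 262 in the other high-fat livers, and 184 and 240 in chow livers, with Cd79b and Pou2af1 at or below the background bound on all 10 arrays. T and NK cell markers had 13 annotated and 8 tested, with Cd3d at or below it on all arrays, and summed to 306 and 334 in fish oil livers, 371 to 446 in the other high-fat livers, and 420 and 401 in chow livers. Endothelial markers had a median of 0.02 between fish oil and chow. Hepatocyte markers, which summed to 64344 to 78899 over all arrays, had a median of 0.02. Cholangiocyte markers had a median of -0.21 over 3 genes and stellate cell markers had a median of 0.13 over 7. In these 6 lists 0 genes passed by limma in that comparison, where 1 B cell and 1 stellate cell gene had an unadjusted p under 0.05 (7.63% of all probe sets). The part of any of these cell types in the class II values was not tested.

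**Figure D5:**
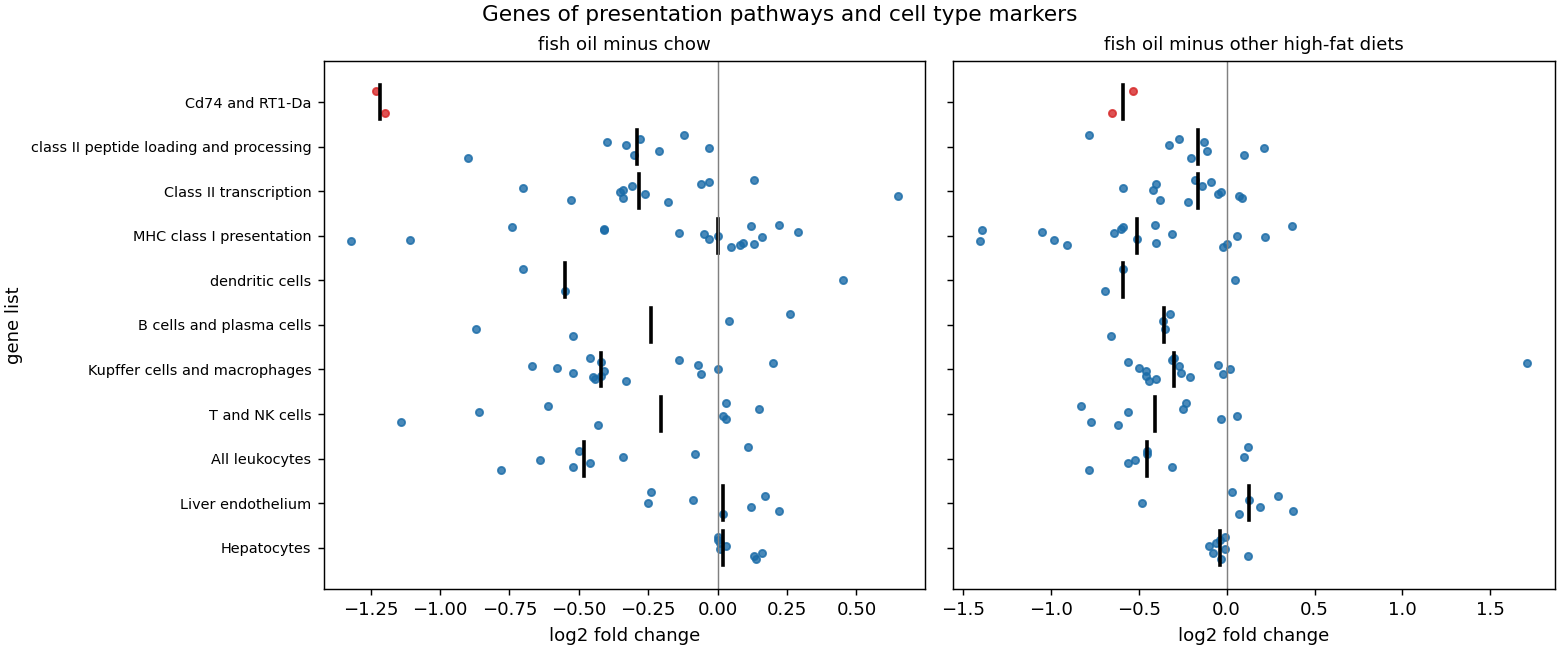
Log2 fold changes of single genes (points) and list medians (black bars) for presentation pathways and cell type markers, with Cd74 and RT1-Da in red, for fish oil minus chow and for fish oil minus the other high-fat diets. The leukocyte median is -0.48 in the first and -0.45 in the second.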

How the data were processed

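The authors deposited 1 table of MAS5 signal intensity on a linear scale for 10 Affymetrix rat expression arrays. MAS5 is named, without a version, per the submitters' processing notes. Of 31099 probe sets 57 controls were removed. Signals were log2-transformed after 3.1, their 10th percentile, was added. The dimmest 40% by mean log2 value (under a signal of 17.8) were dropped before testing, leaving 18625. Symbols came from the platform annotation: 20826 probe sets had 1 symbol, 436 several and 9780 none. limma 3.58.1 (R 4.3.3) estimated diet means over the 10 arrays together, with 5 residual degrees of freedom and 5.96 prior ones from its trended empirical Bayes step, and each of the 8 comparisons had its own Benjamini-Hochberg adjustment (threshold 0.05). Python 3.11.15 with pandas 2.3.3 and matplotlib 3.10.9 searched promoters and drew the figures. The number of arrays limits the precision.

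The members, the 14 gene lists (156 names, 123 on the annotation, each gene by 1 probe set) and the tests were chosen with earlier results of these data known. All member probe sets are reported. Other named genes are the 8 most like Cd74 by Pearson r, the list genes that passed, and up to 2 per list and comparison with the largest fold change. Genes outside that rule are named as chosen after their values were seen. Mif and the dim or background-level markers are such genes. Alternatives changed scaling, pseudocount, filter, variance model and arrays used. Correlations of all non-control probe sets were 0.919 to 0.935 within a diet and 0.907 to 0.934 between diets. Median signals were 28.7 to 36.8.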

Additional observations from a re-analysis of the deposited data

How the results depend on the processing

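The number of members called between fish oil and chow was 1, a count given only as a description. It became 0 under quantile normalization, without an intensity trend, when only the diets compared were fitted and with the replicate number as a block. Leaving out 1 array also moved it. The counts between lard and chow and between olive oil and lard, both 0 with all arrays, moved without lard 2. Of 152 recomputed counts 138 kept their value and 14 moved, and of 1640 member fold changes 1573 kept their sign. Over the 9 settings other than leaving out 1 array, Cd74 stayed between -1.21 and -1.17 between fish oil and chow, and RT1-Da between -1.24 and -1.2. The causes were not tested.

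The labels do not say whether the replicate number pairs the arrays. Over 10 pairs of diets the deviations of same-numbered arrays correlated between -0.03 and 0.08, with 0 pairs over 0.1. The highest value was that of fish oil and chow. Such values cannot show whether same-numbered arrays were processed together. With it as a block, the probe sets called between fish oil and chow over the whole table were 20, against 29 without it, and those between fish oil and the other high-fat diets 60, against 79.

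Without an intensity trend these whole-table counts were 7 and 6, and with only the diets compared 21 and 120. That last setting called 3 probe sets between olive oil and lard, against 0 in the fit to all diets, and 8 between lard and chow, against 3, 5 between coconut fat and chow, against 0, and 17 between the 3 other high-fat diets and chow, against 10. The list genes were put through the same alternatives, chosen after the data were seen. Psmb8 lost its call with every array at the same 75th percentile, without an intensity trend and with the block. Cd14 lost its call between fish oil and the other high-fat diets without an intensity trend. Its call between the 3 other high-fat diets and chow was lost under quantile normalization and without an intensity trend. In these comparisons Psmb8 and Cd14 kept their sign in 19 of 19 alternatives.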

Other observations

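Some RT1 class I probe sets also had single arrays far from the rest. They were chosen after their values were seen and were not tested. RT1-CE10 1388203_x_at had 736.6 in lard 1 and 548.4 in coconut fat 2, the arrays that were bright on RT1-Ba 1381593_x_at and 1392334_at, and 92.4 to 263.6 in the other 8 arrays. RT1-A 1370429_at had 32.1 in lard 1 and 250.4 to 508.9 elsewhere. RT1-T24-4 1389734_x_at had 140.4 in lard 1 and 498.4 to 968.6 elsewhere, and RT1-N2 1387839_at had 70.1 in lard 1 and 174.7 to 447.5 elsewhere. Lard 1 was the lowest array on 3 of these 4 probe sets and the highest on the other. Nothing is read from that count, because the 4 were picked for such arrays.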
